A study of Homo sapiens with 15 samples.

Results

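The BCL2 family of apoptosis regulators was followed through 15 RNA-seq libraries of 3 human acute myeloid leukemia (AML) lines. Its 10 members were BCL2, BCL2L1, MCL1, BCL2A1, BAX, BAK1, BCL2L11, BBC3, PMAIP1 and BID, chosen by gene symbol among 57820 gene identifiers, and all 10 had values above 0 in every line. The lines were MOLM-13, U937 and HL-60, 3 suspension lines that the study used as AML lines. Each was transduced either with the empty lentiviral vector pLKO, the control, or with a short hairpin RNA against RNF5, called shRNF5. RNF5 is a membrane-anchored ubiquitin ligase of the endoplasmic reticulum. MOLM-13 had 3 pLKO and 2 shRNF5 libraries (replicates 1 and 2), U937 had 2 pLKO (replicates 2 and 3) and 2 shRNF5 libraries (replicates 1 and 3), and HL-60 had 3 of each. The labels give the harvest as 7 days after knockdown in one place and 5 days in another, they do not name the hairpin that was sequenced, and they do not say whether replicates were separate cultures, so a p-value here measures only the spread between these libraries. Values are normalized read counts, scaled by the authors within each line.

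BCL2 family proteins decide at the outer mitochondrial membrane whether a cell starts the intrinsic pathway of apoptosis. The prosurvival members (BCL2, BCL-XL from BCL2L1, MCL1 and BFL1/A1 from BCL2A1) bind and hold the effectors BAX and BAK, which otherwise form pores that let cytochrome c out and lead to caspase activation. BH3-only proteins (BIM from BCL2L11, PUMA from BBC3, NOXA from PMAIP1, and BID) carry stress signals by occupying the groove of the prosurvival proteins or by activating BAX and BAK. AML cells are known for leaning on BCL2 and MCL1, and the BCL2 inhibitor venetoclax is used against this disease.

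RNF5 itself showed the knockdown in every line. Its normalized read count was between 1017 and 1223 with pLKO and 76 and 81 with shRNF5 in MOLM-13, 648 and 843 against 46 and 74 in U937, and between 506 and 689 against 37 to 133 in HL-60. The spacing of the scaled values put the depth at about 9700000 to 63800000 reads per library. In MOLM-13 depth moved with the construct: the pLKO libraries had 9700000 to 15300000 reads and the shRNF5 libraries 24400000 and 63800000, and the part of depth in the MOLM-13 results was not tested. Of 8 myeloid markers, 7 were above 0 in every line and CD68 was listed at 0 throughout; erythroid and megakaryocytic markers were all listed at 0, lymphoid markers summed to 126 or less per library, and the epithelial markers to 134 or less, all from KRT8. The summed myeloid markers moved with the construct in HL-60, at 114751 to 139372 with pLKO and 150818 to 218473 with shRNF5, and their part in the HL-60 results was not tested. MPO, the myeloperoxidase gene, made up most of that sum, at 105563 to 130372 with pLKO and 141317 to 207430 with shRNF5; MPO, LYZ and PTPRC rose there, CD33 fell (log2 fold change −0.45, limma adjusted p = 0.0241), and CSF3R (−0.28) and SPI1 (−0.035) were not called. In U937 the sum went the other way, at 22141 and 23921 with pLKO and 17909 and 21133 with shRNF5. CSF3R fell there (−0.97, limma adjusted p = 0.0614). LYZ made up most of the U937 sum, at 11555 and 16704 against 13342 and 10482, overlapping (−0.23, not called). CD33 (−0.25) and SPI1 (−0.79) were lower and MPO (0.65), CEBPA (0.30) and PTPRC (0.13) higher, and none of these was called. The part of these markers in the U937 results was not tested.

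The 4 members that passed the test in at least 1 line are encoded by genes whose upstream DNA differs in composition, and the 250 bases before each RefSeq start (GRCh38.p14) are shown, 5′ to 3′ on the gene's strand, because these are the transcripts on which the results turn. Capitals mark 2 motifs on either strand. One is the GC box GGGCGG, which reads CCGCCC on the opposite strand. The other is the CCAAT box, which reads ATTGG when it lies on the opposite strand. The windows lie at chr15:79971197-79971446 (minus) for BCL2A1, chr19:47232668-47232917 (minus) for BBC3, chr18:59899746-59899995 (plus) for PMAIP1 and chr18:63319770-63320019 (minus) for BCL2.
BCL2A1: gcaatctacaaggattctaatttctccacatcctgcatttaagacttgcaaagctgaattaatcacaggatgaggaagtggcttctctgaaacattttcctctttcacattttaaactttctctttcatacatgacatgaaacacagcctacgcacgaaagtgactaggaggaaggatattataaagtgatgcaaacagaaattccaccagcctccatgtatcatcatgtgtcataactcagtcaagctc
BBC3: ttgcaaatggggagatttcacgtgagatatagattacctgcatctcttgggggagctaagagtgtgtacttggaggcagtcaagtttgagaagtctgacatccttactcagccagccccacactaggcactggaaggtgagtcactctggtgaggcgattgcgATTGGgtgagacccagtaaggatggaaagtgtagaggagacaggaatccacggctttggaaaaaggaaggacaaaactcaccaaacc
PMAIP1: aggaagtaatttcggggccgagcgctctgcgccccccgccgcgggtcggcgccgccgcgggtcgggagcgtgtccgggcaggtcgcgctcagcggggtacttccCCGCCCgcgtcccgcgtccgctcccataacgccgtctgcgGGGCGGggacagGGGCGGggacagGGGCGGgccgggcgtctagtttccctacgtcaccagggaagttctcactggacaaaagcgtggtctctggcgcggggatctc
BCL2: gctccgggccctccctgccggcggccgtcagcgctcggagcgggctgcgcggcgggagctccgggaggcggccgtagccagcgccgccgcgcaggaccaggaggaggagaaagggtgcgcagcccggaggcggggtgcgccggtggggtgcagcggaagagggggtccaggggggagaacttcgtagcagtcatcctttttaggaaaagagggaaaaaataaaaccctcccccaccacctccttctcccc
The BCL2A1 window was the poorest in GC of the 4, at 38.8% with 2 CpG dinucleotides, and BBC3 held 49.2% with 4. PMAIP1 held 72.8% GC, 36 CpG and 4 GC boxes, and BCL2 held 70.0% GC, 24 CpG and neither motif. Over 35116 such windows the median was 58.0% GC and 11 CpG, a GC box occurred in 42.6% and a CCAAT box in 32.0%, and 22.9% held no more CpG than BCL2A1. A window was found for 9 of the 10 members, with more than 1 start for BCL2L1 and BID. Letters in a window are a description and not a binding site.

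A gene was called in a line when limma gave a Benjamini-Hochberg adjusted p under 0.1 over all genes tested in that line and a log2 fold change (shRNF5 against pLKO, on log2(value + 1)) beyond 0.4. In MOLM-13, 0 of 10 members were called, where 2.04% of 13026 genes were called, 1.03% up and 1.01% down. In U937, 1 of 10 was called, BBC3, which fell, where 15.7% of 13165 genes were called, 6.92% up and 8.74% down. In HL-60, 4 of 10 were called, BCL2 and BCL2A1 down and PMAIP1 and BBC3 up, where 25.9% of 12570 genes were called, 13.6% up and 12.3% down. The members' median log2 fold change was −0.064 for MOLM-13, 0.14 for U937 and 0.012 for HL-60, beside 0.0073, 0.0042 and 0.0020 over all genes tested. At an unadjusted p under 0.05, limma's test was passed by 3 of the 10 members in MOLM-13 (MCL1, BCL2A1 and BCL2L11), 3 in U937 (MCL1, BCL2A1 and BBC3) and 4 in HL-60 (BCL2, BCL2A1, BBC3 and PMAIP1), where 17%, 27.1% and 35% of all genes tested passed it. BCL2A1 was the 1 member that passed it in all 3 lines, and the share of all genes that did so was not computed. The study had already listed BCL2A1 among the genes lower in all 3 lines of these same data, so this is no separate finding. In bulk RNA, a lower level per cell and fewer cells that express a gene cannot be told apart.

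**Figure D1:**
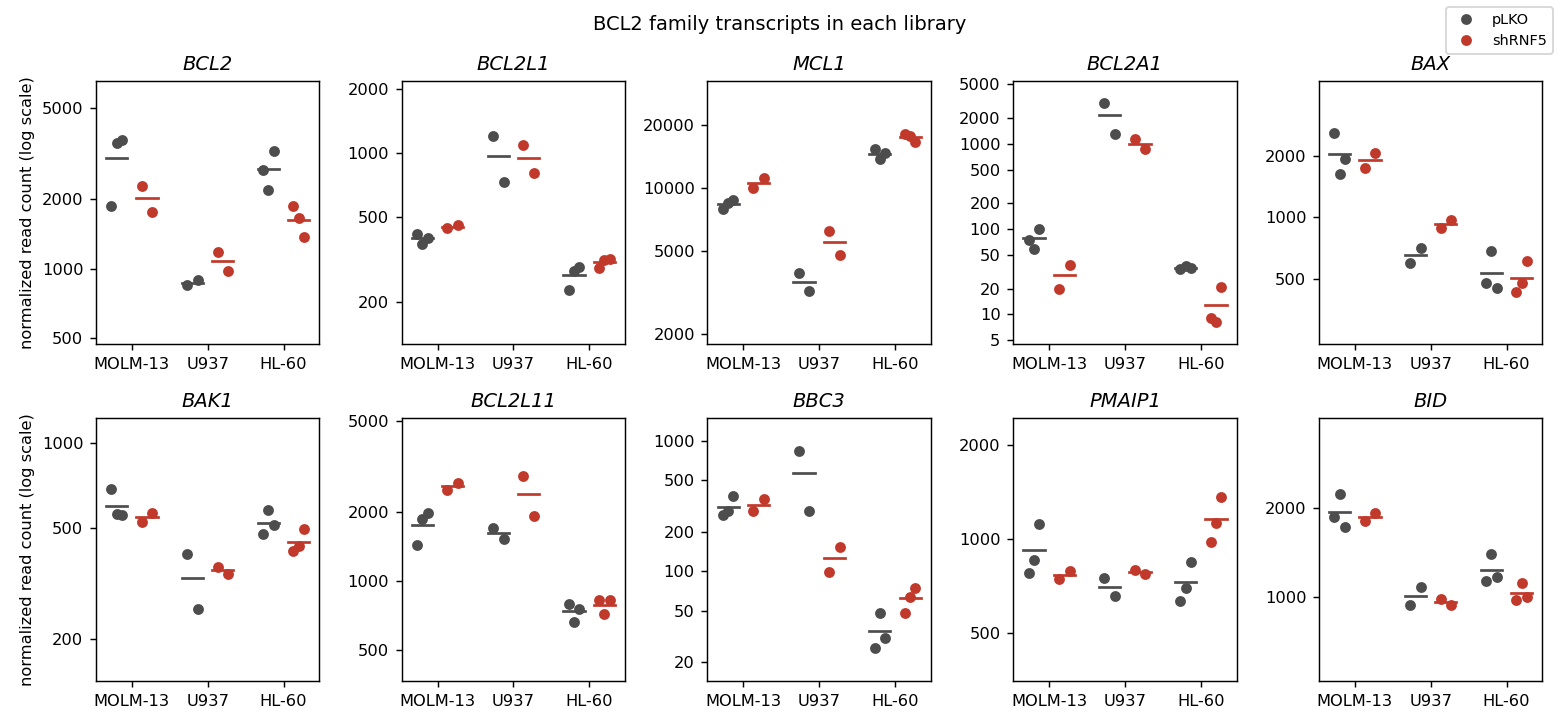
Normalized read count (log axis, a separate scale in each panel) of the 10 members in every library, grouped by line, with pLKO in grey, shRNF5 in red and a bar at each group's mean. BCL2A1 is far higher in U937 than in the other lines, its shRNF5 points lie below its pLKO points in all 3 lines, and the MCL1 shRNF5 points lie above the pLKO points in all 3.

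BCL2A1, on chromosome 15 from 80253234 to 80263538 on the minus strand (GRCh37, as for all gene positions that follow), encodes a short prosurvival protein whose gene is a known NF-kappaB target in blood cells. In HL-60 it was at 34, 37 and 35 with pLKO and at 9, 8 and 21 with shRNF5, so the groups did not overlap. It fell there, with a log2 fold change of −1.53 (SE 0.39, adjusted p = 0.0220). These are small numbers, about 29 to 43 reads in the control libraries and 7 to 27 in the knockdown libraries, by the estimated depth. In U937 its values were 3046 and 1319 with pLKO and 1138 and 864 with shRNF5, a log2 fold change of −1.01 (SE 0.36, adjusted p = 0.106) that missed the threshold. The pair of control libraries differed more from each other than replicate 3 of pLKO did from the knockdown libraries. Without pLKO replicate 3 the U937 value was −1.62 and was called (adjusted p = 0.0619), but the control was then replicate 2 alone, the library at 3046, with a spread taken from the knockdown pair. In MOLM-13 the gene was at 74, 59 and 100 with pLKO and 20 and 38 with shRNF5, and the log2 fold change of −1.43 (SE 0.40, adjusted p = 0.157) was not called. There, estimated reads were 35 to 39 in the controls and 50 and 37 in the deeper knockdown libraries. All shRNF5 libraries lay below all pLKO libraries of their line for BCL2A1, an order held by 19.2%, 30.2% and 18.6% of the genes tested in the 3 lines.

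BCL2, on chromosome 18 from 60790579 to 60987361 (minus), encodes the founding prosurvival protein and the target of venetoclax. In HL-60 it was at 2694, 2199 and 3257 with pLKO and at 1876, 1655 and 1380 with shRNF5. The groups did not overlap and BCL2 fell, with a log2 fold change of −0.72 (SE 0.16, adjusted p = 0.0140). In MOLM-13 the pLKO libraries held 1875, 3536 and 3635 and the shRNF5 libraries 2283 and 1760, which overlap through pLKO replicate 1. The MOLM-13 log2 fold change was −0.53 (SE 0.29, adjusted p = 0.382), and without pLKO replicate 1 it was −0.84 and was called (adjusted p = 0.0473). In U937 the values went the other way, from 846 and 893 to 1183 and 981 (log2 fold change 0.31, SE 0.25, adjusted p = 0.451).

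MCL1, on chromosome 1 from 150533371 to 150552214 (minus), encodes a prosurvival protein with a very short half-life that also serves in myeloid progenitors. In MOLM-13 it was at 7943, 8505 and 8712 with pLKO and 10000 and 11116 with shRNF5 (log2 fold change 0.33, SE 0.13, adjusted p = 0.257). In U937 the values were 3898 and 3205 against 6195 and 4759 (0.62, SE 0.25, adjusted p = 0.145). In HL-60 they were 15364, 13789 and 14683 against 18073, 17721 and 16645 (0.26, SE 0.13, adjusted p = 0.167). Every shRNF5 library was above every pLKO library of its line, an order held by 19.6%, 29% and 19.9% of genes, and in no line did the difference pass the threshold. An exon of MCL1 overlaps exons of ADAMTSL4 and ADAMTSL4-AS1 in the annotation.

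BCL2L1, on chromosome 20 from 30252255 to 30311792 (minus), encodes BCL-XL, which protects many differentiated cells, and in a shorter spliced form BCL-XS, which does the opposite, and a gene-level value holds both. It was not called in any line. In MOLM-13 the values were 418, 377 and 400 against 445 and 459 (log2 fold change 0.18, SE 0.17), and in HL-60 229, 280 and 294 against 288, 316 and 318 (0.21, SE 0.16). In U937 the values 1209 and 731 against 1089 and 803 overlapped fully (−0.01, SE 0.31). The 95% interval in U937 ran from −0.68 to 0.67, so changes within that range were not excluded with 2 libraries a group.

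The 4 prosurvival transcripts were also compared with each other, after dividing each value by the length of the gene's canonical transcript, as shares of their sum. With pLKO, MCL1 made up 75.6% ± 3.2 (SD, n = 3) in MOLM-13 and 87.2% ± 1.5 (n = 3) in HL-60, and BCL2 15.3% ± 4.0 and 9.27% ± 1.45. In U937, BCL2A1 held 64.6% ± 9.3 (n = 2), MCL1 22.9% ± 7.0, BCL2L1 9.15% ± 0.83 and BCL2 3.35% ± 1.56. The control make-up of U937 thus led with BCL2A1 on the per-length scale, while that of the other lines led with MCL1. With shRNF5 the MCL1 share reached 84.0% ± 1.9 (n = 2) for MOLM-13, 43.4% ± 0.2 (n = 2) for U937 and 92.2% ± 0.2 (n = 3) for HL-60, above every control library of the same line. The BCL2A1 share was 1.16% ± 0.45, 40.2% ± 0.2 and 0.344% ± 0.213, against 3.53% ± 0.83, 64.6% ± 9.3 and 1.07% ± 0.11 with pLKO. The labels name a 3′ end kit and the study's methods a whole-transcript kit, and reads from 3′ ends need no division by length. Undivided, the U937 control order changed: MCL1 led with 47.7% ± 6.2 and BCL2A1 held 27.7% ± 8.8, and with shRNF5 they held 64.4% ± 0.2 and 11.8% ± 0.1. These shares are described without a test.

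**Figure D2:**
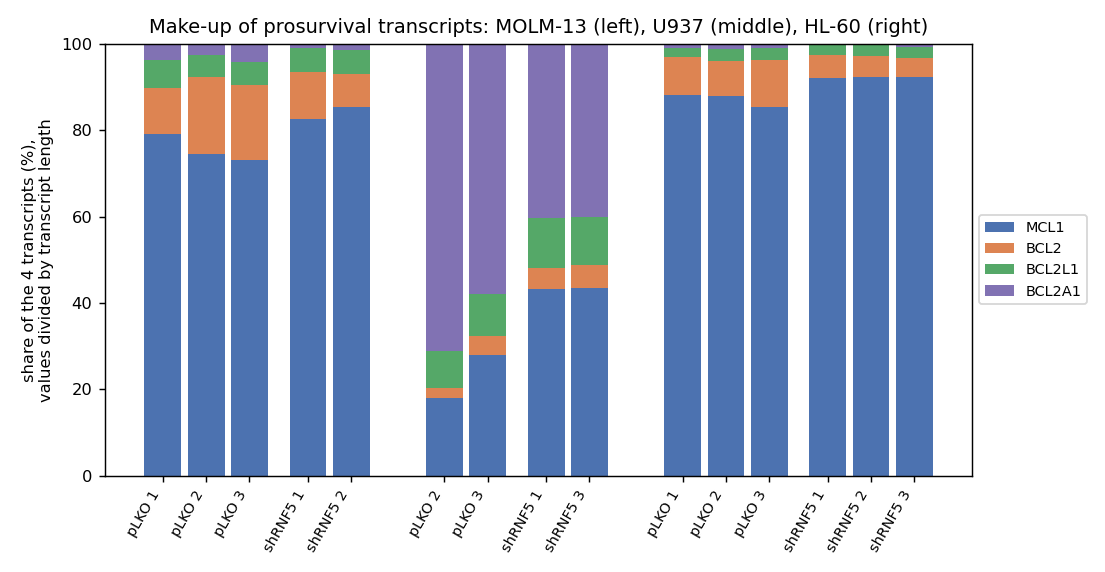
Share in percent of MCL1, BCL2, BCL2L1 and BCL2A1 in their summed value, each divided by transcript length, in 1 bar per library, with lines side by side and replicates numbered as in the labels. BCL2A1 makes up 57.99% to 71.20% of the U937 control bars and 40.03% to 40.28% of the U937 shRNF5 bars, and MCL1 fills most of every MOLM-13 and HL-60 bar.

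The effectors did not pass the test in any line. BAX, on chromosome 19 from 49458072 to 49465055 (plus), encodes the effector that moves from the cytosol to mitochondria when activated. It was at 594 and 710 with pLKO and 890 and 968 with shRNF5 in U937, where the groups did not overlap (log2 fold change 0.51, SE 0.26, adjusted p = 0.228). In MOLM-13 it was at 2601, 1631 and 1939 against 1758 and 2076 (−0.08, SE 0.21), and in HL-60 at 475, 680 and 449 against 428, 475 and 612 (−0.07, SE 0.19). In both of those lines the ranges overlapped. BAK1, on chromosome 6 from 33540324 to 33548070 (minus), encodes the effector that sits on mitochondria from the start. Its pLKO and shRNF5 values overlapped in all 3 lines, at 684, 558 and 556 against 524 and 565 in MOLM-13, 403 and 256 against 363 and 341 in U937, and 476, 576 and 511 against 412, 430 and 496 in HL-60. The largest BAK1 log2 fold change in size was −0.22 (SE 0.14, adjusted p = 0.285), in HL-60.

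Among the BH3-only members, BBC3 was called in opposite directions in U937 and HL-60. BBC3, on chromosome 19 from 47724079 to 47736023 (minus), encodes PUMA, which binds all prosurvival members. In U937 it was at 834 and 292 with pLKO and at 98 and 153 with shRNF5. It fell, with a log2 fold change of −2.0 (SE 0.47, adjusted p = 0.0382). Its fold change was −1.25 without pLKO replicate 2 (adjusted p = 0.261), −1.68 without shRNF5 replicate 1 (adjusted p = 0.600), −2.32 without shRNF5 replicate 3 (adjusted p = 0.165) and −2.76 without pLKO replicate 3, the 1 of these fits in which it was called. Each of these fits leaves 1 library in a U937 arm, assumed to vary like the other arm. RNF5 itself was not called in the first of them (−3.83) and the second (−3.30), so a lost call in those says little about stability. In the third, without shRNF5 replicate 3, RNF5 was called and BBC3 was not. Without limma's mean-variance trend the BBC3 call was also lost (adjusted p = 0.136). In HL-60, BBC3 was at 26, 48 and 31 with pLKO and at 48, 64 and 74 with shRNF5, with the ranges touching at 48. It rose there (log2 fold change 0.83, SE 0.30, adjusted p = 0.0751), from about 26 to 46 reads in the controls and 41 to 94 in the knockdown libraries. That call was lost without pLKO replicate 1 (adjusted p = 0.210), pLKO replicate 3 (0.201), shRNF5 replicate 2 (0.143) or shRNF5 replicate 3 (0.225), and in a fit over all 15 libraries (0.115). In MOLM-13 the values 270, 288 and 374 against 289 and 359 overlapped (0.07, SE 0.22).

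PMAIP1, on chromosome 18 from 57567228 to 57571537 (plus), encodes NOXA, which binds MCL1 and BFL1/A1 and is induced by the integrated stress response. In HL-60 it was at 634, 701 and 848 with pLKO and at 983, 1130 and 1362 with shRNF5. Every knockdown library was above every control library, and PMAIP1 rose, with a log2 fold change of 0.67 (SE 0.16, adjusted p = 0.0164). In U937 the values were 751 and 661 against 798 and 774 (0.16, SE 0.26). In MOLM-13 they were 783, 861 and 1122 against 746 and 790, overlapping, with a log2 fold change of −0.25 (SE 0.19, adjusted p = 0.532).

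BCL2L11, on chromosome 2 from 111876955 to 111926021 (plus), encodes BIM, the BH3-only protein that removes many blood cells when growth factor signalling stops. It was at 1434, 1868 and 1973 with pLKO and 2483 and 2683 with shRNF5 in MOLM-13 (log2 fold change 0.57, SE 0.17, adjusted p = 0.174). In U937 it was at 1704 and 1532 against 2859 and 1921 (0.54, SE 0.26, adjusted p = 0.218). The groups did not overlap in either line, and neither difference passed the threshold. In MOLM-13, without pLKO replicate 1, it was called (0.43, adjusted p = 0.0951). In HL-60 the values 798, 661 and 752 against 825, 715 and 823 overlapped (0.10, SE 0.13).

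BID, on chromosome 22 from 18216904 to 18257536 (minus), encodes the link from death receptors to mitochondria, which caspase 8 cuts into its active form. Its values were 1854, 2230 and 1727 against 1810 and 1916 in MOLM-13 and 943 and 1081 against 989 and 940 in U937, overlapping in both. In HL-60 they were 1136, 1393 and 1168 with pLKO and 980, 1114 and 998 with shRNF5, which did not overlap, and the log2 fold change was −0.25 (SE 0.13, adjusted p = 0.182). Over the 10 members, the groups did not overlap for 4 (MOLM-13), 7 (U937) and 5 (HL-60), where 38.7%, 59.2% and 38.5% of all genes tested did not overlap.

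**Figure D3:**
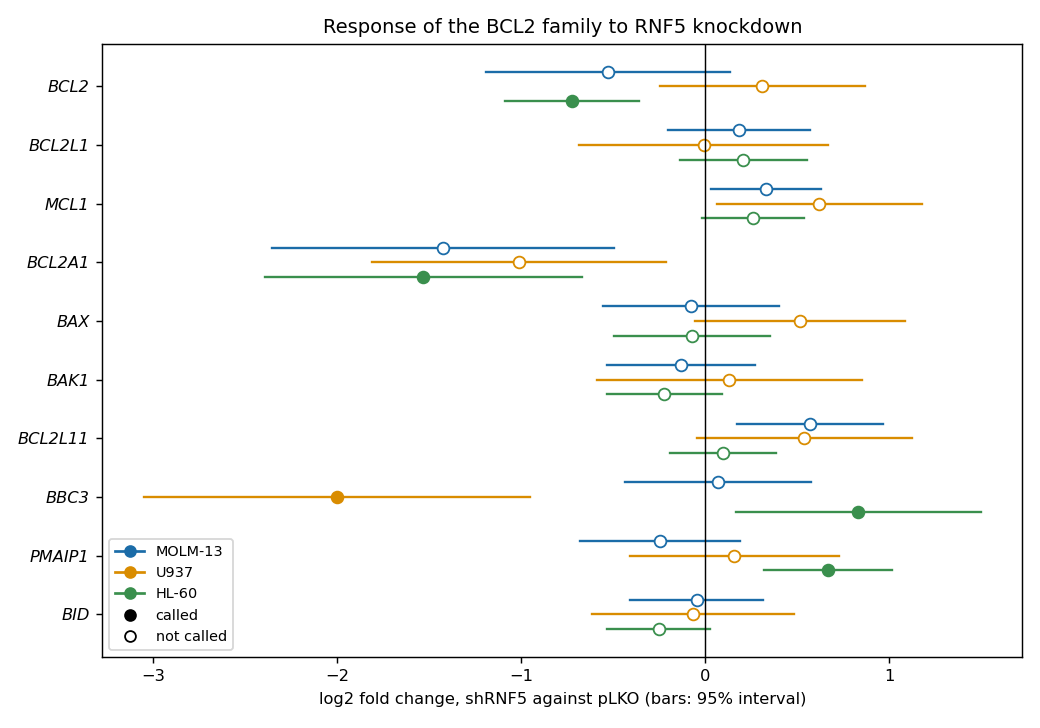
Log2 fold change of shRNF5 against pLKO for each member in MOLM-13 (blue), U937 (orange) and HL-60 (green), with 95% intervals from limma and filled points where the gene was called. The 5 filled points are BCL2, BCL2A1, BBC3 and PMAIP1 in HL-60 and BBC3 in U937, and BBC3 lies at −2.0 in U937 and 0.83 in HL-60.

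In HL-60 the calls of BCL2, BCL2A1 and PMAIP1 held whichever 1 library was left out. The log2 fold changes without 1 library ran from −0.87 to −0.58 for BCL2, −1.94 to −1.29 for BCL2A1 and 0.54 to 0.78 for PMAIP1. The adjusted p-values reached at most 0.0715, 0.0792 and 0.0624.

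Whether the knockdown response itself differed between lines was tested in 1 limma fit over all 15 libraries and 11072 genes. BBC3 differed between U937 and HL-60 by −2.83 on the log2 scale (U937 minus HL-60, SE 0.54, adjusted p = 0.00228), and this held without any 1 library, at −3.59 to −2.08. BBC3 also differed between MOLM-13 and U937, by 2.07 (MOLM-13 minus U937, SE 0.57, adjusted p = 0.0400), and this was not called without MOLM-13 shRNF5 replicate 2 (1.91, adjusted p = 0.164), U937 pLKO replicate 2 (1.31, adjusted p = 0.176) or U937 shRNF5 replicate 1 (1.75, adjusted p = 0.196). BCL2 differed between U937 and HL-60 by 1.03 (U937 minus HL-60, SE 0.36, adjusted p = 0.0408), which was lost without U937 shRNF5 replicate 1 (0.90, adjusted p = 0.151). PMAIP1 differed between MOLM-13 and HL-60 by −0.91 (MOLM-13 minus HL-60, SE 0.25, adjusted p = 0.0564). Members that differed thus numbered 1 of 10 between MOLM-13 and U937, 1 of 10 between MOLM-13 and HL-60 and 2 of 10 between U937 and HL-60, where 15.4%, 8.82% and 37.2% of all genes differed. For BCL2A1 the responses were −1.43, −1.01 and −1.53, and no difference between lines passed. The difference between U937 and HL-60 was 0.52 (SE 0.60, adjusted p = 0.540), so with this spread equal and unequal responses could not be told apart.

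Levels in the control libraries differed between lines beyond the range of the libraries for every member but PMAIP1. Each line was normalized by itself, so levels are given per 1000000 of the library's summed values, as a mean over the control libraries and as a description with no test. BCL2A1 was at 134 in U937, 3.07 in MOLM-13 and 2.18 in HL-60, a ratio of 43.6 between U937 and MOLM-13, and no ranges overlapped. MCL1 was highest in HL-60 at 902, then MOLM-13 at 330 and U937 at 218, again without overlap. BCL2 was at 168 in HL-60 and 119 in MOLM-13, which overlapped, and at 53.5 in U937, below both. BCL2L1 was highest in U937 at 59.5, with HL-60 at 16.5 and MOLM-13 at 15.7 overlapping. U937 thus had the highest BCL2A1 and BCL2L1 and the lowest MCL1 and BCL2.

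Among the proapoptotic members, BBC3 was at 34.4 in U937, 12.2 in MOLM-13 and 2.15 in HL-60 on the same scale, with no overlap. BCL2L11 followed the same order, at 99.5, 69.2 and 45.5. BAX was highest in MOLM-13 at 81.0, above U937 at 40.2 and HL-60 at 32.9, which overlapped. BAK1 was at 32.1 in HL-60, above MOLM-13 at 23.6 and U937 at 20.2, which overlapped. PMAIP1 was at 44.9 in HL-60, 43.4 in U937 and 36.3 in MOLM-13, all overlapping. BID was at 76.1 in MOLM-13 and 76.0 in HL-60 and at 62.4 in U937.

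Transcription factors that act on the family were read beside it, with MDM2, a RING ubiquitin ligase, on the same list. MDM2 was not called in any line. Its log2 fold change was 0.46 for the MOLM-13 libraries (adjusted p = 0.157), 0.42 for U937 (0.284) and −0.32 for HL-60 (0.146). In HL-60, DDIT3, which encodes the stress factor CHOP, rose from 128 to 181 with pLKO to 242 to 364 with shRNF5 (0.94, adjusted p = 0.0134), and E2F1, a factor of cell cycle entry, rose (0.48, adjusted p = 0.0639). MYC fell in HL-60 from 21613 to 29696 with pLKO to 8948 to 11565 with shRNF5 (−1.28, adjusted p = 0.00134), and FOXO1, a factor that induces BCL2L11, fell from low values (−0.89, adjusted p = 0.0725). In U937 the factor called was STAT5A, which induces BCL2L1 and MCL1 downstream of cytokine receptors and fell (−1.07, adjusted p = 0.0526). In MOLM-13 no factor on this list of 12 was called by limma, and 3 passed an unadjusted p under 0.05, as did 17% of all genes tested there.

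Of the other BH3-only and BNIP genes, 1 of 5 tested was called up in HL-60 and 1 of 6 in U937, where 13.6% and 6.92% of all genes were. None was called down, and 0 of 6 were called in MOLM-13. There, 1 of 6 was higher and 4 of 6 passed an unadjusted p under 0.05 (limma), where 17% of all genes did. These were BAD, BIK, BNIP3 and BNIP3L, all lower with shRNF5. The list's median log2 fold change was −0.53 for MOLM-13, −0.16 for U937 and 0.23 for HL-60. BMF, whose protein is held at the cytoskeleton and binds prosurvival members when released, was between 233 and 488 with pLKO and between 865 and 1318 with shRNF5 in HL-60. It rose by 1.56 on the log2 scale (SE 0.26, adjusted p = 0.00389). HRK, best known from dying neurons, was at 0 and 5 with pLKO and 23 and 20 with shRNF5 in U937 and rose (adjusted p = 0.0891). In HL-60 it was listed at 0. The relatives with several BCL2 homology domains, such as BCL2L2 and BCL2L13, had 0 genes called by limma, with 3 of 7 tested in MOLM-13 and 4 of 7 in each of the other lines, and 2 of them passed an unadjusted p under 0.05, in HL-60, where 35% of all genes did. BCL2L10, BCL2L14 and BOK were listed at 0 in all libraries.

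Downstream of mitochondria, the list of apoptosome proteins, caspases and inhibitors of apoptosis (IAPs) held 18 genes, all tested in each line. In HL-60, 1 rose and 3 fell, where 13.6% of all genes tested were called up and 12.3% down. XIAP, which blocks caspases, was at 1296 to 1652 with pLKO and 875 to 1068 with shRNF5 and fell (log2 fold change −0.68, adjusted p = 0.00911). DFFB, the nuclease that cuts DNA in apoptosis, fell (−0.77, adjusted p = 0.0194), as did BIRC6, an IAP whose groups overlapped (−0.86, adjusted p = 0.0547). BIRC2, another IAP, was at 645 to 718 with pLKO and 877 to 936 with shRNF5 and rose (0.43, adjusted p = 0.0303). XIAP was the 1 pathway gene called in MOLM-13, at 1798 to 2066 with pLKO and 1051 and 1103 with shRNF5 (−0.81, adjusted p = 0.0682), and its fold change stayed between −0.84 and −0.74 without any 1 library. Its call was lost without pLKO replicate 2 or 3 or either shRNF5 library (adjusted p = 0.112 to 0.543), and without a shRNF5 library that arm holds 1. In U937, XIAP was at 2385 and 1916 against 1345 and 1309 (−0.69) and was not called.

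In the death receptor list of 12 genes, RIPK1, the kinase that can turn receptor signals to survival or death, rose in U937 from 357 and 333 to 794 and 690 (log2 fold change 1.1, adjusted p = 0.0434). It also rose in HL-60, from 305 to 314 with pLKO to 525 to 607 with shRNF5 (0.87, adjusted p = 0.00300). CASP8, which cuts BID, rose in U937 (0.97, adjusted p = 0.0544) and was at 0.05 in both other lines on the log2 scale. FAS, a death receptor, fell in HL-60 (−0.83, adjusted p = 0.0218), where TNFRSF1A, a receptor for tumor necrosis factor, rose (0.43, adjusted p = 0.0546). Among ubiquitin ligases and deubiquitinases of family proteins, HUWE1, a ligase of MCL1, fell in HL-60 with overlapping groups (−0.58, adjusted p = 0.0916) and BTRC, a subunit of a ligase that acts on several members, fell (−0.59, adjusted p = 0.0259). In the other lines HUWE1 was higher with shRNF5, with groups that did not overlap, at 0.87 for MOLM-13 (adjusted p = 0.126) and 0.70 for U937 (adjusted p = 0.139), and was not called. Of the 6 enzymes tested in each line, 5 were above 0 for MOLM-13 (median log2 fold change 0.35), 4 for U937 (median 0.42) and 0 for HL-60 (median −0.29).

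Over the 62 pathway genes beside the members, 0 of 56 tested rose and 1 fell in MOLM-13, 3 of 57 rose and 1 fell in U937, and 6 of 56 rose and 8 fell in HL-60. The shares over all genes called in the same directions were 1.03% and 1.01%, 6.92% and 8.74%, and 13.6% and 12.3%. Of the 14 HL-60 calls, 7 held without any 1 library. BMF, MYC, DDIT3, RIPK1, FAS, DFFB and XIAP were those 7. FOXO1, BIRC6, E2F1, HUWE1 and TNFRSF1A were lost without pLKO replicate 1, pLKO replicate 3 or shRNF5 replicate 3, with adjusted p up to 0.273, 0.198, 0.214, 0.297 and 0.202. BTRC was lost without pLKO replicate 3 (adjusted p = 0.120) and BIRC2 without pLKO replicate 2, where its fold change passed below the threshold. The 4 U937 calls were each lost without pLKO replicate 2, shRNF5 replicate 1 or shRNF5 replicate 3, in fits with 1 library in an arm that also lost RNF5 itself in the first pair of cases. Without shRNF5 replicate 3, RNF5 itself stayed called. Over the 4 fits that leave out a library, the fold changes kept their sign. They ran from 1.0 to 1.2 for RIPK1, 0.91 to 1.02 for CASP8, −1.44 to −0.70 for STAT5A and 1.9 to 4.5 for HRK. With every library kept but without limma's mean-variance trend, these 4 calls were also lost (adjusted p = 0.119 to 0.159).

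**Figure D4:**
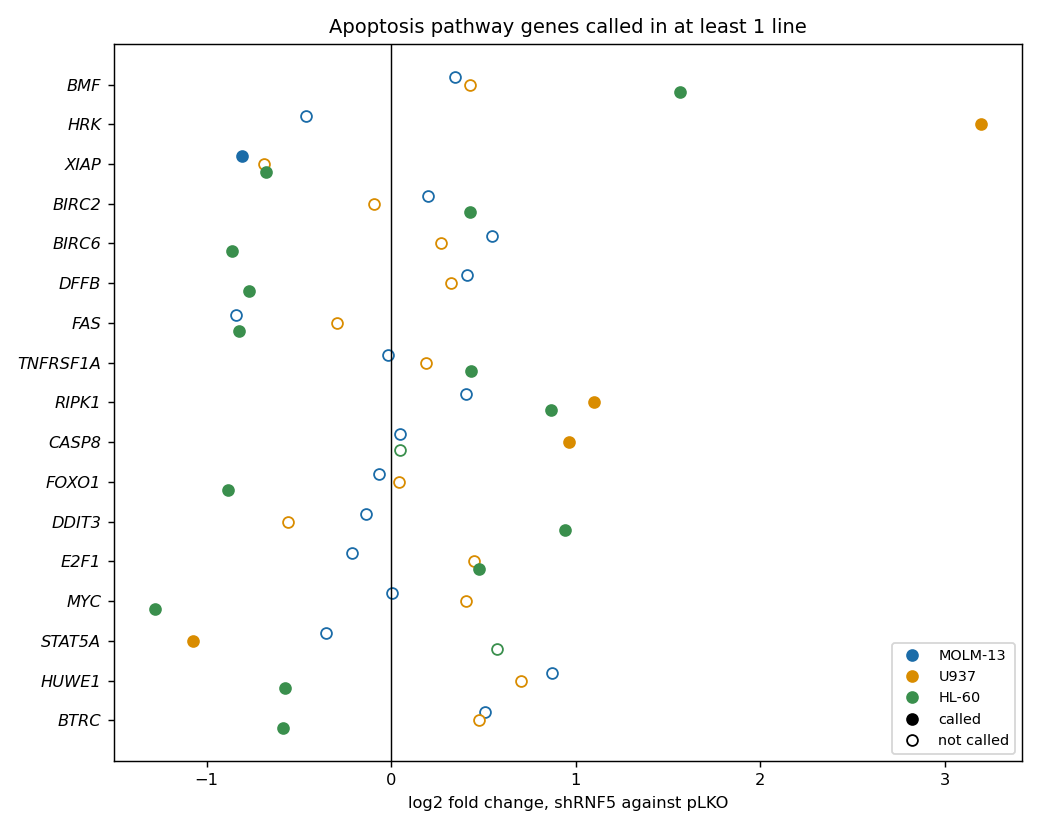
Log2 fold change of shRNF5 against pLKO in the 3 lines for the 17 pathway genes called in at least 1 line, filled where called and absent where not tested (the place of HRK in U937, at 0 and 5 with pLKO, depends on the pseudocount). XIAP lies between −0.81 and −0.68 in all 3 lines, and BMF and MYC in HL-60 lie apart from the other lines.

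The genes whose pattern over the 15 libraries was most like that of BCL2A1 were found after subtracting each line's mean from log2(value + 1), among 10771 genes with a mean of at least 20 in every line. VAMP3, a vesicle fusion protein, had Pearson r = 0.93, PRKAG2, a regulatory subunit of AMP-activated kinase, 0.91, ABHD6, a lipid hydrolase, 0.88, SC5D, an enzyme of cholesterol synthesis, 0.87, and RBM47, an RNA-binding protein, 0.86. Within the family, BAK1 was nearest at 0.59 and MCL1 farthest at −0.57. The points share constructs, lines and depth, and r is given as a description. The 5 were picked for following BCL2A1, which was lower with shRNF5 in every line, so the choice itself favours genes lower with shRNF5. Their fold changes on the same libraries are therefore no separate result. For SC5D these were −0.67, −0.80 and −0.60 on the log2 scale in MOLM-13, U937 and HL-60.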

How the data were processed

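RNA from the 15 libraries was sequenced on an Illumina instrument. STAR was used by the authors for alignment (hg19), featureCounts for gene counts, and edgeR through SARTools for normalization. Values are whole numbers scaled within each line, and a gene at 0 in all libraries of a line was taken as filtered there. The deposited normalized read counts are therefore treated as a score, not as raw counts. The submitters' processing notes name featureCounts, Subread and edgeR, with no versions. The labels name a 3′ end library kit and the study's methods another kit.

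The members and gene lists were chosen with earlier results of these data known. Values were read as log2(value + 1) and fitted in R 4.3.3 with limma 3.58.1 (empirical Bayes with a mean-variance trend), each line by itself, over genes above 0 in at least 1 library of that line. A gene was called at a Benjamini-Hochberg adjusted p under 0.1 and a log2 fold change beyond 0.4. Differences in response came from 1 fit over 15 libraries, at an adjusted p under 0.1. All tests were two-sided. The fits were tested on simulated data.

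Named genes were the 10 members, RNF5 and MDM2, up to 4 called genes with the largest fold changes per list and line, and the 5 genes most like BCL2A1. The lists covered BCL2 relatives, BH3-only proteins, caspases and IAPs, death receptors, transcription factors, ubiquitin enzymes and markers of myeloid, lymphoid, erythroid and epithelial cells. Depth was estimated from the spacing of low values and is 9700000 to 63800000 reads per library, so precision differs between libraries. Gene coordinates and lengths are from GRCh37 with GENCODE, and upstream sequences from RefSeq on GRCh38.p14. Alternatives were other pseudocounts, a filter on low values, rescaling, no trend, library weights, a stricter threshold, a joint fit, a replicate block and leaving out each library. Some genes of these lists are not reported here.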

Additional observations from a re-analysis of the deposited data

Results flagged for a closer look

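Between lines, 4 responses of family members to RNF5 knockdown differed by limma's test of the difference itself. BBC3 differed by 2.07 on the log2 scale between MOLM-13 and U937 (0.07 against −2.0, SE 0.57, adjusted p = 0.0400), and by −2.83 between U937 and HL-60 (−2.0 against 0.83, SE 0.54, adjusted p = 0.00228). Both use the U937 control libraries, at 834 and 292. The first was not called without MOLM-13 shRNF5 replicate 2 (1.91, adjusted p = 0.164), U937 pLKO replicate 2 (1.31, 0.176) or U937 shRNF5 replicate 1 (1.75, 0.196). BCL2 differed by 1.03 between U937 and HL-60 (0.31 against −0.72, SE 0.36, adjusted p = 0.0408), which was lost without U937 shRNF5 replicate 1 (0.90, adjusted p = 0.151). For PMAIP1 the difference of MOLM-13 from HL-60 was −0.91 (−0.25 against 0.67, SE 0.25, adjusted p = 0.0564), and this was lost without MOLM-13 shRNF5 replicate 1 (adjusted p = 0.255) or 2 (0.157), HL-60 pLKO replicate 1 (0.142) or HL-60 shRNF5 replicate 3 (0.160). The members have groups of 2 and 3 libraries, too few for a check of single libraries that stand apart.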

How the results depend on the processing

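Of 623 values of named genes under other settings, 587 kept their direction and their side of the threshold, 16 lost a call, 12 gained one and 8 changed sign. Fewer genes or libraries were tested under the filter and without single libraries; for the other changes the cause was not tested.

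Counts of called members and pathway genes moved as follows. In MOLM-13 library weights gave 3 members (BCL2, BCL2A1 and BCL2L11) and 13 pathway genes against 0 and 1, the replicate block gave 3 pathway genes, and no trend or an adjusted p under 0.05 gave 0 pathway genes. In U937 the members went from 1 to 2 with a pseudocount of 10, a mean of at least 50 or library weights (BCL2A1 joining), to 0 without the trend and to 3 in the joint fit (MCL1 and BCL2L11 joining). U937 pathway genes went from 4 to 0 without the trend, 1 at an adjusted p under 0.05 and 16 in the joint fit. In HL-60 the mean of at least 50 left 2 called members against 4, because BCL2A1 and BBC3 did not pass that filter, and an adjusted p under 0.05 left 9 pathway genes against 14. With a mean of at least 50, members whose response differed went from 1 to 0 for MOLM-13 against U937 and from 2 to 1 for U937 against HL-60. For MOLM-13 against HL-60 they went from 1 to 2 with library weights and to 0 at an adjusted p under 0.05.

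Without 1 library, called members ranged from 0 to 2 in MOLM-13, 0 to 2 in U937 and 3 to 4 in HL-60, pathway genes from 0 to 8, 0 to 10 and 8 to 21, and differing members from 0 to 2 (MOLM-13 and U937), 0 to 1 (MOLM-13 and HL-60) and 1 to 4 (U937 and HL-60).

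Signs changed for several values, and not all of these were near 0 in the main fit. The BCL2A1 difference there was −0.41 (SE 0.63) for MOLM-13 less U937 and 0.52 (SE 0.60) for U937 less HL-60. With library weights BAX in MOLM-13 was 0.088, and differences in response were −0.051 (BCL2L11) and −0.062 (BID) for MOLM-13 less U937, and 0.072 (BCL2L1) and 0.080 (BAX) for MOLM-13 less HL-60. With rescaling BCL2L1 in U937 was 0.0081 and the last of these BAX differences was 0.013, and with a pseudocount of 10 the BCL2A1 difference of MOLM-13 less HL-60 was −0.14. Without 1 library, log2 fold changes ran from −0.23 to 0.10 (BAX), −0.089 to 0.22 (BBC3) and −0.13 to 0.058 (BID) in MOLM-13, −0.37 to 0.35 (BCL2L1), −0.20 to 0.46 (BAK1) and −0.16 to 0.032 (BID) in U937, and −0.22 to 0.11 (BAX) in HL-60. Differences of MOLM-13 less U937 ran from −0.26 to 0.32 (BCL2L11), −0.080 to 0.12 (BID), −1.01 to 0.19 (BCL2A1), −0.17 to 0.55 (BCL2L1) and −0.59 to 0.063 (BAK1). Those of MOLM-13 less HL-60 ran from −0.12 to 0.38 (BCL2), −0.094 to 0.086 (BCL2L1), −0.19 to 0.18 (BAX), −0.34 to 0.55 (BCL2A1) and −0.0041 to 0.15 (MCL1), and those of U937 less HL-60 from −0.58 to 0.15 (BCL2L1) and −0.086 to 1.12 (BCL2A1).

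Deviations of same-numbered libraries from their group means gave r = −0.17 and −0.53 in MOLM-13 and 0.50, 0.16 and −0.11 in HL-60. In MOLM-13 the deviations of the 2 shRNF5 libraries mirror each other, so r cannot decide on pairing there. In HL-60 the highest r was that of pLKO replicate 1 with shRNF5 replicate 1 (0.50), while pLKO replicate 2 correlated best with shRNF5 replicate 3 (0.40). The numbers were not taken to pair the libraries. With the replicate block, differing members numbered 0 (MOLM-13 against U937), 2 (MOLM-13 against HL-60) and 1 (U937 against HL-60). In that fit the U937 response came from 1 pair alone, replicate 3 of each construct, and the other U937 libraries added nothing to it. On that pair the BBC3 difference of MOLM-13 less U937 was 1.14 and the BCL2 difference of U937 less HL-60 was 0.86. Counts and differences that involve U937 are thus no check of the unpaired results. For U937 by itself no paired fit was made because its constructs share 1 replicate number.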

Other observations

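Some members share exonic positions with other annotated genes, and whether counting used strand is not given in the sources used here. BCL2L1 overlaps ABALON, BAK1 overlaps GGNBP1, BCL2L11 overlaps MIR4435-2HG and BBC3 overlaps MIR3191, each annotated on the other strand. MCL1 overlaps ADAMTSL4 on the other strand and ADAMTSL4-AS1 on its own strand. BCL2, BCL2A1, BAX, PMAIP1 and BID overlap no exon of another gene, and 3 of the 4 members called in at least 1 line are among these 5.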
